A study of Homo sapiens with 60 samples.

Results

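The aryl hydrocarbon receptor (AhR) and the genes it is best known to control were followed through 60 RNA-seq libraries: AHR, the receptor; ARNT, its dimer partner; AHRR, its repressor; TIPARP, an enzyme that feeds back on it; and the metabolic enzyme genes CYP1B1, CYP1A1 and ALDH3A1. These 7 genes were chosen by name from the 60675 genes of the count table, with earlier results of these data known. Counts of members or list genes beside shares of all genes are therefore descriptions and not tests of enrichment. All 7 passed the filter on low counts that left 17676 genes for testing. ALDH3A1 held 2 to 7 expected counts in a vehicle library and passed through the groups in which it was higher, so its presence among the tested genes is not evidence of a change. Its calls, and the counts of members that include it, are given as description for the same reason.

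The cells were SW1783, an established human astrocytoma line, harvested 24 h after an ethanol extract or the DMSO vehicle was added. Low, medium and high doses were 20, 100 and 500 µg/mL for Cinnamomi Cortex (a bark) and for 4 formulas, Sibjeondaebo-tang, Palmul-tang, Samul-tang and Sagunja-tang. Astragali Radix (a root) was given at 8.8, 44 and 220 µg/mL. Each of these 18 groups and the vehicle had 3 libraries, and Rehmanniae Radix Preparata (a processed root) had 1 library per dose, which gives no test. The labels put the vehicle at 0.1% DMSO and the series text at 2%, and this was not resolved. Vehicle libraries carry a label code of their own, and so do the Rehmanniae Radix Preparata libraries. Astragali Radix and Cinnamomi Cortex share a code, as do Sagunja-tang and Samul-tang, and Palmul-tang and Sibjeondaebo-tang, so extract against vehicle and code against code cannot be told apart. In the traditional recipes Rehmanniae Radix Preparata is a component of Samul-tang. Palmul-tang is made from the components of Samul-tang with those of Sagunja-tang, and Sibjeondaebo-tang is Palmul-tang with the bark and the Astragali root added. The labels do not say whether replicates were separate cultures, so p-values measure the spread between these libraries, which may be technical.

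AhR waits in the cytoplasm in a complex with heat shock proteins until a planar aromatic or indole-like molecule binds it, then enters the nucleus, pairs with ARNT and binds DNA at a short core sequence, GCGTG. It is known as a sensor of dioxins and of many plant and microbial compounds, flavonoids among them, and in astrocytes it is known for its part in limiting inflammation. CYP1A1 and CYP1B1 are the classical readouts of its activity, while AHRR competes for ARNT and TIPARP marks the receptor by ADP-ribosylation, so that both hold the response back.

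Depth ranged from 19793387 to 37152410 expected counts per library. Mitochondrial counts made up 8.036%, 7.554% and 7.948% of the vehicle libraries and at most 7.181% of any extract library. Whether this bears on the members was not tested. Values below are depth-scaled counts (CPM, on TMM-scaled library sizes) per library, and changes are log2 differences with their SE from edgeR's quasi-likelihood test, called where the Benjamini-Hochberg adjusted p over all 17676 genes was below 0.05. Of the astrocyte and glioma markers, VIM, CD44, SOX9, SLC1A3 and NES were present, whereas GFAP, S100B, AQP4 and ALDH1L1 did not exceed 0.259, 0.326, 0.13 and 0.182 CPM in any library. Of markers of other cell types, AIF1, CX3CR1, MOG, EPCAM, CDH1 and CDH5 did not exceed 0.204 CPM, whereas SYT1, SNAP25, KDR and PTPRC reached 40.6, 26.7, 38.7 and 13.0 CPM; their part in the results was not tested. Astragali Radix low replicates 1 and 2 stood apart: in these, smooth trends over GC content and transcript length accounted for 29.1% and 50% of how genes deviated from their means, against 0.1% to 12.9% in the other libraries. All libraries share one estimate of spread per gene. Members were called in 38 of 126 tests against the vehicle with these libraries and in 62 without them, and in 21 against 35 of 70 tests between extracts. Without them 65 member tests gained a call, 23 of TIPARP, 17 of AHRR, 7 each of AHR and ARNT, 5 of CYP1B1, 4 of ALDH3A1 and 2 of CYP1A1, while none of these log2 changes moved by more than 0.013. The main ones are given below. Leaving these libraries out keeps 1 library of Astragali Radix low, so values of that group then have no spread of their own. The counts above include tests of that group. Shares of all genes called in the alternative fits are not given, so the members' gains cannot be set against those of other genes.

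CYP1A1, AHRR and TIPARP promoters are shown because these genes followed CYP1B1 over the groups other than Astragali Radix. Each line is the 250 bases before a RefSeq start (GRCh38.p14), 5′ to 3′ on the gene's strand, with the core GCGTG, on either strand, in capitals.
CYP1A1, chr15:74725529-74725778, minus strand: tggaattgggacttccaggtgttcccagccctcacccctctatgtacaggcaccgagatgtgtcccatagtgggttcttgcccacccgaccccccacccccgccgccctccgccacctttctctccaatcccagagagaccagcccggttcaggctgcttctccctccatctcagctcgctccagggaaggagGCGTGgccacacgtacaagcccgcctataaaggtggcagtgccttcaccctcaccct
AHRR, chr5:321464-321713, plus strand: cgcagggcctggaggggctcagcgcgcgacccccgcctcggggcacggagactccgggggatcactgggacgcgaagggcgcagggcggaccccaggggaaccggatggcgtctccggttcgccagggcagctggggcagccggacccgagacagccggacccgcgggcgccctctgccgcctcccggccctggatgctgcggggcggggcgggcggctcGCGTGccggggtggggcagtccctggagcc
TIPARP, chr3:156674340-156674589, plus strand: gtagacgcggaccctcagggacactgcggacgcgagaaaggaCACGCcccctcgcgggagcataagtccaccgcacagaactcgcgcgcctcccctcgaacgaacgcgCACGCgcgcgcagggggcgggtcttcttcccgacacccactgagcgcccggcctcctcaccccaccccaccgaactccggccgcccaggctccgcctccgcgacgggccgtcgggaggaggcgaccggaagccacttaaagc
RefSeq lists 1 start for CYP1A1, 2 for AHRR and 3 for TIPARP, and the first of each is shown. The CYP1A1 window held 1 core at position -57 from the start, the AHRR window 1 at -30, and the TIPARP window 2 at -208 and -142. The second AHRR window held 2, at -247 and -42, while the other 2 TIPARP windows and those of AHR and ARNT held 0. A core was found in 32.2% of 35116 promoter windows of this length, and the longer TNGCGTG, found in the AHRR window, in 4.52%. A match is a description of these letters and not a bound site.

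In vehicle libraries the receptor, its partner and its feedback genes were all expressed. Mean levels per kilobase of exon were 20.5 CPM for CYP1B1, 11.4 for AHR, 11.3 for TIPARP, 7.79 for ARNT and 5.31 for AHRR, against 0.252 for CYP1A1 and 0.0569 for ALDH3A1. CYP1A1 and ALDH3A1 thus rest on few counts, 20 to 22 and 2 to 7 per vehicle library.

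The members fell into 3 patterns over the extracts. With the formulas at the high dose, CYP1A1, CYP1B1 and ALDH3A1 were higher than in the vehicle in all 4, with AHR, ARNT and AHRR not called. AHRR, CYP1B1 and TIPARP were lower with Cinnamomi Cortex high. Astragali Radix high showed far more AHR and far less CYP1B1 and AHRR. Against the vehicle, 3 of 7 members were called higher with Sagunja-tang high (11.2% of all genes tested), 4 of 7 with Samul-tang high (9.37%), 3 of 7 with Palmul-tang high (10.0%) and 3 of 7 with Sibjeondaebo-tang high (11.2%). Each of these formula counts includes ALDH3A1, which passed the filter through the groups in which it was higher. The other members called were CYP1A1 and CYP1B1, and TIPARP with Samul-tang. With Cinnamomi Cortex high, 3 of 7 were called lower (8.56% of all genes). With Astragali Radix high, 3 of 7 were higher (32.6%) and 2 lower (35.6%), and 68.2% of all genes were called in that comparison, so the count there says little about the members. The median change over the 7 members was 0.14, 0.42, 0.18 and 0.28 for the formulas in the order above, -0.50 for Cinnamomi Cortex and 0.15 for Astragali Radix, beside medians over all genes of 0.02, 0.01, 0.01, -0.00, 0.01 and -0.06.

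**Figure D1:**
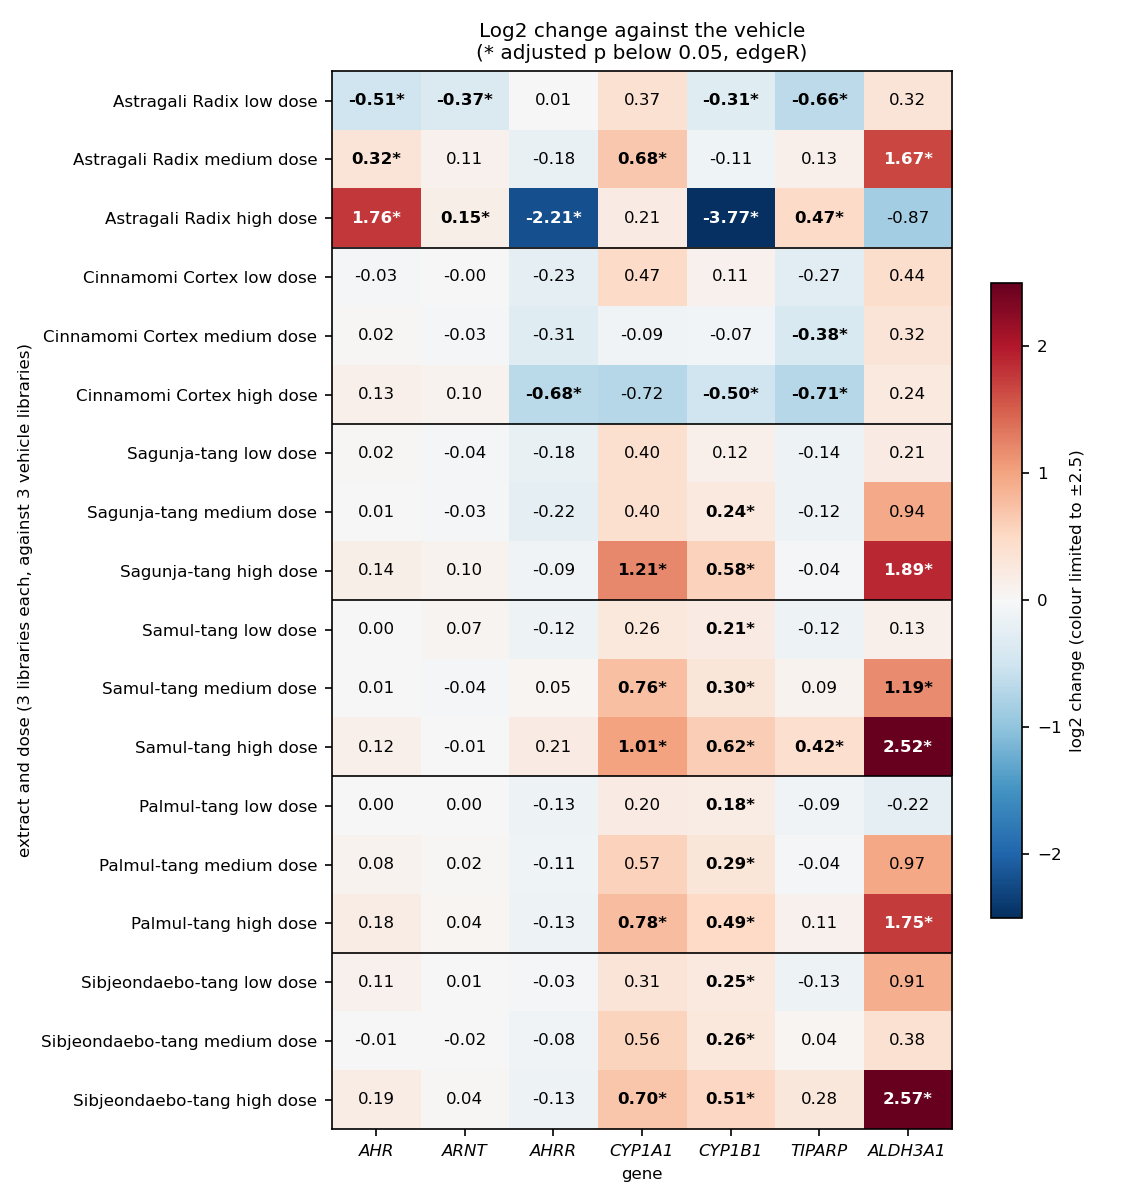
Log2 change of each member (columns) against the 3 vehicle libraries for the 18 extract-by-dose groups (rows, 3 libraries each), with colour limited to ±2.5 and an asterisk for an adjusted p below 0.05 (edgeR). The formulas' high doses are called higher for CYP1A1, CYP1B1 and ALDH3A1, Cinnamomi Cortex high lower for AHRR, CYP1B1 and TIPARP, and Astragali Radix high holds the largest changes of AHR (1.76) and CYP1B1 (-3.77).

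AHR, the ligand-binding receptor (chromosome 7, 16916359 to 17346152 on GRCh38), varied little outside Astragali Radix. The vehicle libraries held 95, 92.0 and 89.4 CPM. Astragali Radix held 320.0, 310.0 and 307 CPM at the high dose, 112, 111 and 123 at the medium dose, and 63.5, 42.6 and 87.9 at the low dose. Every library of the high and medium doses lay above the vehicle and every low-dose library below it. AHR was 3.39-fold higher at the high dose (log2 1.76 ± 0.10, adjusted p = 1.13e-19) and also higher at the medium dose (0.32 ± 0.10, adjusted p = 0.0237). The medium-dose call was lost on leaving out any one vehicle library or Astragali Radix medium replicate 3 (adjusted p up to 0.124), with log2 changes still from 0.27 to 0.38 over all alternatives. At the low dose AHR was called lower (-0.51 ± 0.10), a call that rests on the libraries that stood apart. With low-dose replicate 3 alone the change was -0.05. In the other 15 groups the change lay between -0.03 and 0.19 and was not called in the fit of all libraries. Without the libraries that stood apart, AHR was called slightly higher at the high dose of Cinnamomi Cortex (0.14) and of all 4 formulas (0.13 to 0.20). The dose trend, the log2 change per 5-fold step from low to high, was 1.13 ± 0.05 for Astragali Radix (adjusted p = 2.25e-23) and lay between 0.04 and 0.09 for the other 5 extracts. Over the 19 groups ordered by level, 3 of 18 neighbouring pairs had libraries that did not overlap, and Astragali Radix high stood alone at the top.

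ARNT, the partner that AhR needs to bind DNA (chromosome 1, 150809705 to 150876768), was the steadiest member. Vehicle libraries held 52.0, 48.7 and 51.6 CPM, and outside Astragali Radix the group means ran from 49.3 to 54.3 CPM, with all 18 neighbouring pairs in the order of the 19 groups overlapping. With Astragali Radix high it held 56.8, 56.6 and 55.3 CPM, log2 0.15 ± 0.06 above the vehicle (adjusted p = 0.0394). That direction depends on the scaling: on library totals without TMM, ARNT was lower there, at -0.19 (adjusted p = 0.0198), in a comparison where the median of all genes also moved by -0.33. The call was lost on leaving out any one of the 6 libraries compared and with no filter on low counts. With Astragali Radix low, ARNT held 36.4, 33.2 and 48.0 CPM and was called lower (-0.37 ± 0.07). The libraries that stood apart held the 2 lowest values, and with replicate 3 alone the change was -0.07.

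AHRR, the repressor that AhR itself induces (chromosome 5, 304176 to 438291), was at its lowest with Astragali Radix and Cinnamomi Cortex. It shares its locus with PDCD6 on the same strand, which averaged 90.8 CPM, so the split of reads between them is uncertain. The vehicle libraries held 39.6, 40.9 and 41.9 CPM. With Astragali Radix high AHRR held 9.14, 8.29 and 9.16 CPM, far under the vehicle, and was 0.217 of its level (log2 -2.21 ± 0.14, adjusted p = 1.82e-18). With Cinnamomi Cortex it held 24.7, 26.1 and 25.4 CPM at the high dose, 33.3, 32.7 and 33.0 at the medium dose and 33.5, 37.0 and 34.3 at the low dose, all under the vehicle libraries. The high dose was called lower (-0.68 ± 0.12, adjusted p = 7.15e-05). The medium (-0.31, adjusted p = 0.0909) and low doses (-0.23, adjusted p = 0.24) were not, though without the libraries that stood apart they were (-0.30, adjusted p = 2.3e-06, and -0.22, adjusted p = 0.00023). So were Sagunja-tang medium (-0.21, adjusted p = 0.000385) and low (-0.17, adjusted p = 0.00281). The Cinnamomi Cortex dose trend was -0.23 ± 0.06, not called in the fit of all libraries (adjusted p = 0.0984) and called without those 2 (-0.23, adjusted p = 3.3e-09). Samul-tang high was the one group with every library above the vehicle, at 46.1, 47.4 and 47.8 CPM. Its change was 0.21 ± 0.12 (adjusted p = 0.241), and 0.22 (adjusted p = 0.000123) without the libraries that stood apart. In 13 groups every library lay under the vehicle, which has a label code of its own. Astragali Radix low held 24.6, 60.5 and 38.0 CPM, with the 2 libraries that stood apart on opposite sides of the vehicle.

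TIPARP, an ADP-ribosyltransferase induced early by AhR (chromosome 3, 156673235 to 156706770), rose with Samul-tang and fell with Cinnamomi Cortex. The vehicle libraries held 56.2, 59.7 and 55.0 CPM. With Cinnamomi Cortex, TIPARP held 34.4, 34.7 and 35 CPM at the high dose, 42.3, 43.7 and 45.2 at the medium dose and 45.0, 46.7 and 50.3 at the low dose, and no library reached the vehicle. It was called lower at the high (-0.71 ± 0.12, adjusted p = 1.25e-05) and medium doses (-0.38 ± 0.11, adjusted p = 0.0198; 7.17% of all genes were called lower there, and TIPARP was the 1 member). The medium-dose call was lost without vehicle replicate 1 or 2, without Cinnamomi Cortex medium replicate 1 or 2, and on library totals, with log2 from -0.43 to -0.30 and adjusted p up to 0.0923. The low dose was -0.27 (adjusted p = 0.122), and -0.26 (adjusted p = 5.18e-06) without the libraries that stood apart. The Cinnamomi Cortex trend was -0.22 ± 0.06 (adjusted p = 0.0684), and -0.22 (adjusted p = 8.19e-10) without the libraries that stood apart.
Samul-tang gave the reverse order, with 74.4, 76.8 and 77.4 CPM at the high dose, 59.4, 62.3 and 60 at the medium dose and 51.6, 51.5 and 53.7 at the low dose. TIPARP was 1.34-fold above the vehicle at the high dose (0.42 ± 0.11, adjusted p = 0.00594) and rose by 0.27 ± 0.06 per dose step (adjusted p = 0.00272). Sibjeondaebo-tang high held 67.6, 68.2 and 71.9 CPM, all above the vehicle; its change was 0.28 ± 0.11 (adjusted p = 0.0664), and 0.29 (adjusted p = 2.09e-07) without the libraries that stood apart. Its dose trend was called (0.20 ± 0.06, adjusted p = 0.0072). Without those libraries Palmul-tang high was called as well (0.12, adjusted p = 0.0273), as was the Samul-tang step from medium to high (0.33, adjusted p = 1.28e-07). Sagunja-tang high, at 55.4, 54.5 and 56.8 CPM, overlapped the vehicle. With Astragali Radix high TIPARP held 80.2, 79.9 and 77.3 CPM and was called higher (0.47 ± 0.11, adjusted p = 0.000303), but on library totals the change was 0.14 (adjusted p = 0.301). The Astragali Radix low value of -0.66 became -0.14 with its replicate 3 alone, without the libraries that stood apart.

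**Figure D2:**
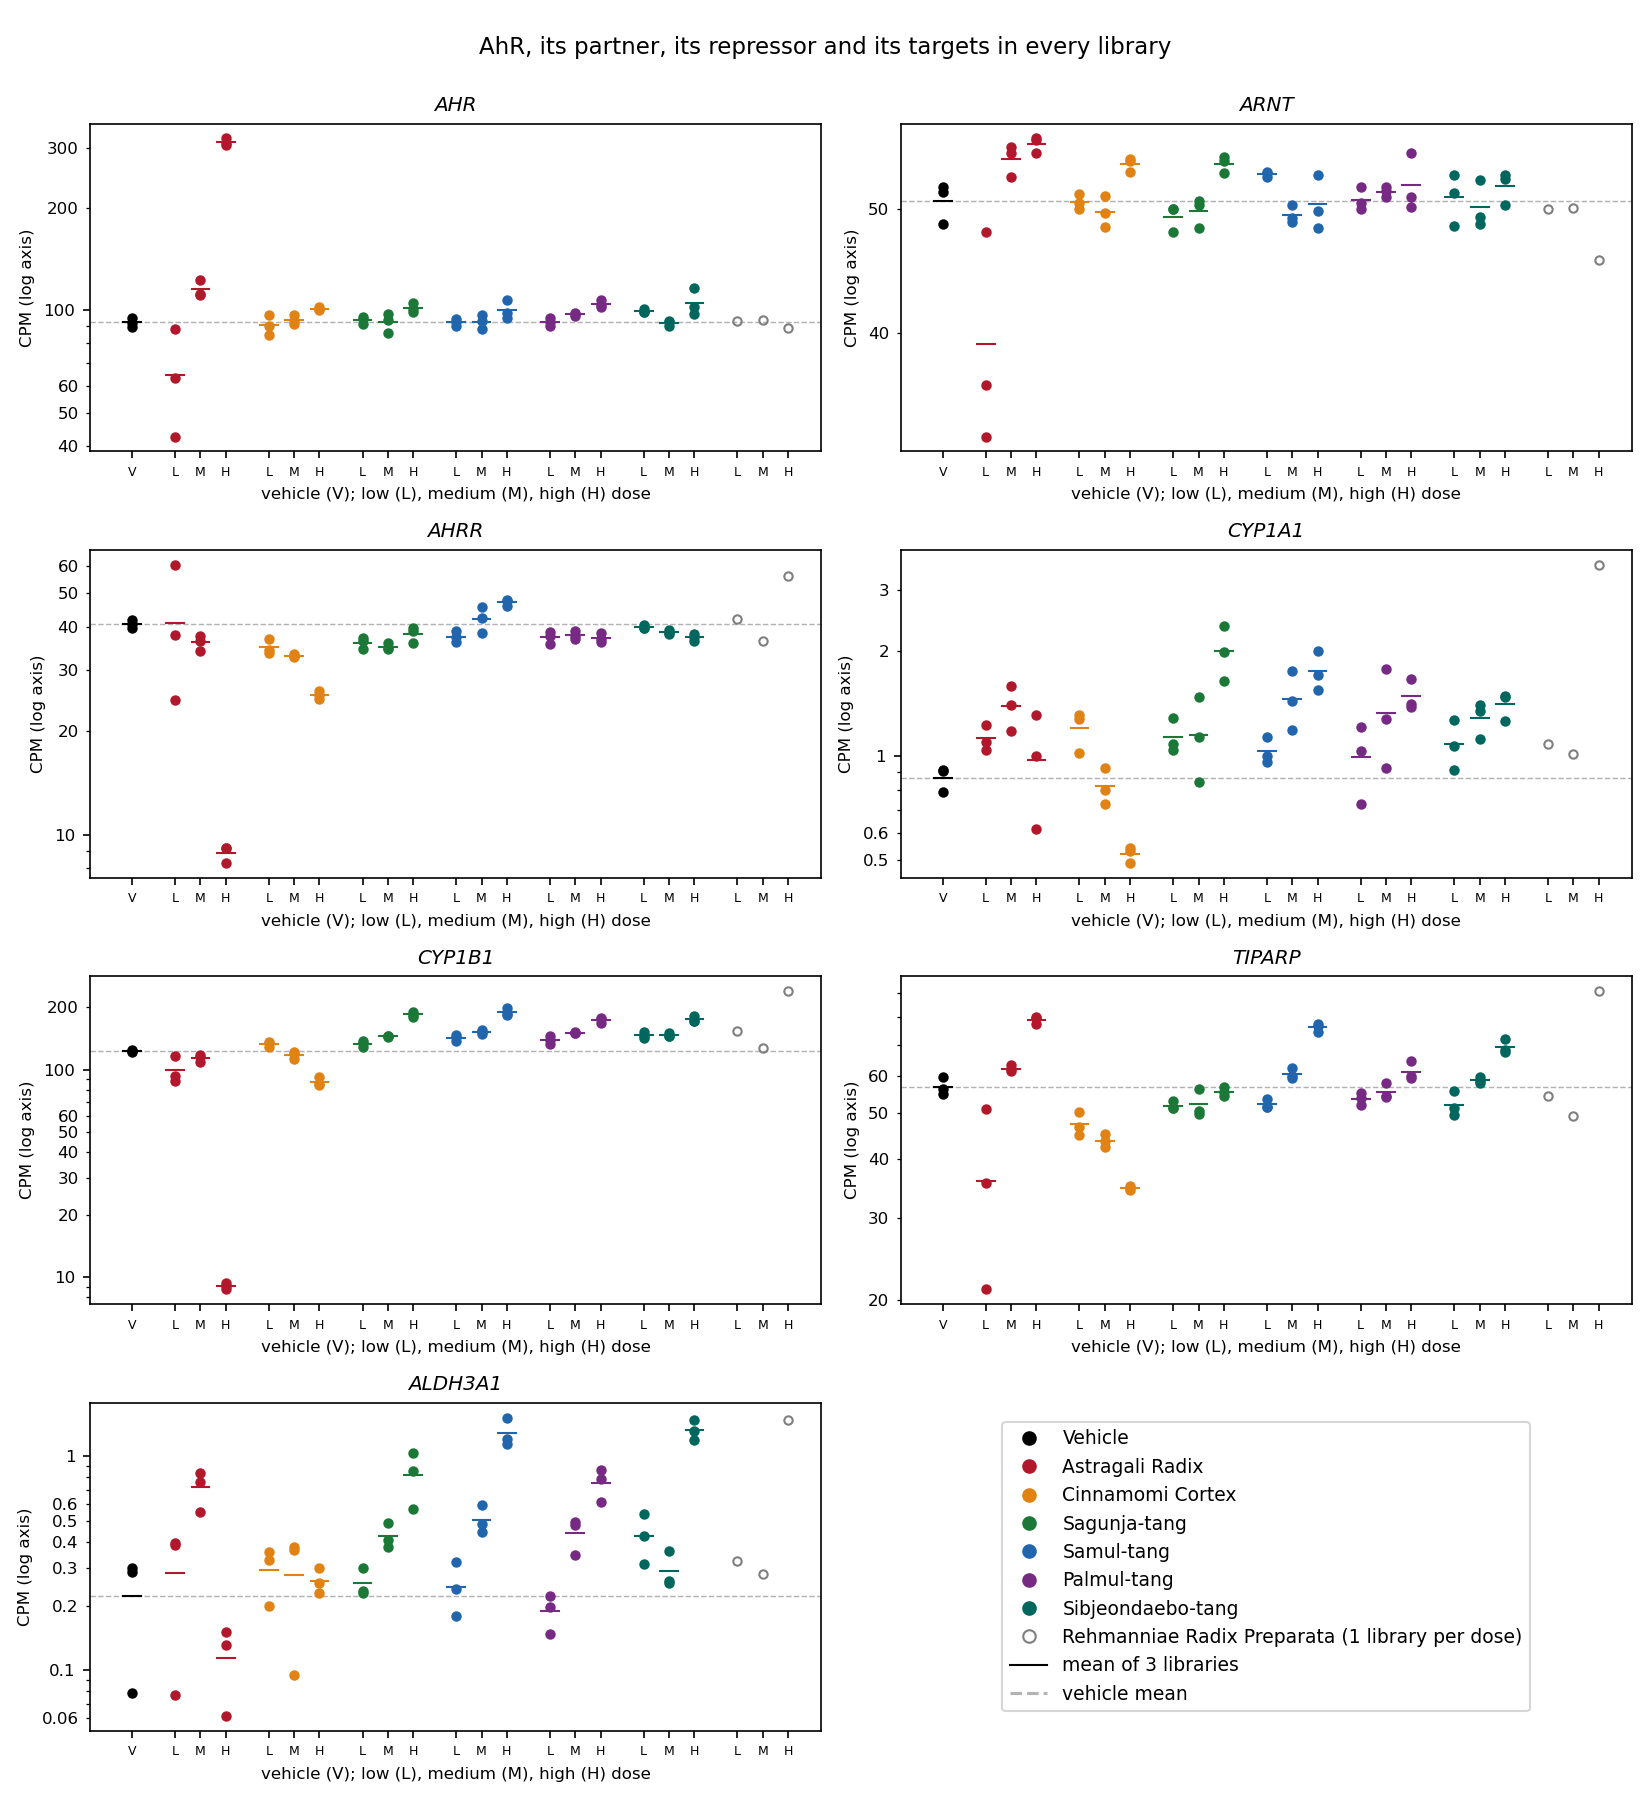
Level of each member in CPM (log axes) in every library, by extract and dose: vehicle (V), low (L), medium (M) and high (H), with filled points for libraries, a short line for the mean of 3, a dashed line for the vehicle mean and open points for the single Rehmanniae Radix Preparata libraries. CYP1B1 climbs with dose in the 4 formulas and descends with Cinnamomi Cortex, and Astragali Radix high stands apart at about 9 CPM beside 123 in the vehicle.

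CYP1B1, a cytochrome P450 that oxidises aromatic compounds and oestrogens (chromosome 2, 38066973 to 38109902), had the highest level of the 7 members per kilobase in the vehicle and was the member called in most groups. It overlaps RMDN2 and CYP1B1-AS1 on the opposite strand, which averaged 1.74 and 0.289 CPM. The vehicle libraries held 123, 122 and 124 CPM. At the high dose CYP1B1 held 184, 180.0 and 190.0 CPM with Sagunja-tang, 185, 199 and 184 with Samul-tang, 176, 167 and 177 with Palmul-tang, and 172, 182 and 172 with Sibjeondaebo-tang. Every one of these 12 libraries lay above every medium-dose and vehicle library. The change against the vehicle was 0.58, 0.62, 0.49 and 0.51 in that order (SE 0.06 each), or 1.41- to 1.54-fold, with adjusted p from 5.04e-11 to 1.08e-08.
At lower doses CYP1B1 was the member called most widely among the formulas. At the medium dose it was higher with Samul-tang (0.30), Palmul-tang (0.29), Sibjeondaebo-tang (0.26) and Sagunja-tang (0.24). At the low dose it was higher with Samul-tang (0.21), Palmul-tang (0.18) and Sibjeondaebo-tang (0.25). Like all comparisons with the vehicle, these run between label codes. It was the only member called with Sagunja-tang, Palmul-tang and Sibjeondaebo-tang medium (1 of 7, with 6.16%, 4.44% and 2.31% of all genes called higher) and with Samul-tang, Palmul-tang and Sibjeondaebo-tang low (1 of 7, with 4.96%, 4.27% and 4.15%). The Palmul-tang low call (adjusted p = 0.0445) was lost on leaving out any one vehicle library, Palmul-tang low replicate 2 or replicate 3, with DESeq2 size factors and with no filter on low counts (adjusted p up to 0.246). The Samul-tang low call was lost on leaving out its replicate 3 and with no filter (adjusted p up to 0.0928). CYP1B1 rose with dose in all 4 formulas, by 0.23, 0.20, 0.16 and 0.13 per step in the order above (adjusted p from 2.16e-07 to 0.00104), and these calls held under the 14 alternatives tried for each. The step from medium to high was called for Sagunja-tang (0.35), Samul-tang (0.32) and Sibjeondaebo-tang (0.25), and not called for Palmul-tang (0.20, adjusted p = 0.0529), where it was called without the libraries that stood apart (0.20, adjusted p = 0.000134), with DESeq2 (adjusted p = 0.0172) and under 3 other alternatives. The Sibjeondaebo-tang step was lost with no filter on low counts (adjusted p = 0.0531).
Cinnamomi Cortex and Astragali Radix went the other way at the high dose. Cinnamomi Cortex held 85.0, 84.1 and 92.6 CPM at the high dose, 112, 119 and 122 at the medium dose, and 136, 135 and 128 at the low dose. The high dose was below and the low dose above every vehicle library, and the low dose, not called in the fit of all libraries (adjusted p = 0.223), was called without those that stood apart (0.11, adjusted p = 0.0218). CYP1B1 fell by 0.30 per dose step (-0.30 ± 0.03, adjusted p = 8.32e-10) and the high dose was -0.50 ± 0.06 against the vehicle (adjusted p = 2.3e-08). Astragali Radix held 8.74, 9.03 and 9.35 CPM at the high dose, 115, 109 and 118 at the medium dose and 93.7, 87.8 and 117 at the low dose. The high dose was 0.0733 of the vehicle (-3.77 ± 0.07, adjusted p = 1.81e-38), with -3.66 between the medium and the high dose. The medium dose was -0.11 against the vehicle (adjusted p = 0.218), and the low dose -0.31 (adjusted p = 5.03e-05). The low-dose value became -0.06 with its replicate 3 alone, without the libraries that stood apart. Less CYP1B1 RNA per cell and fewer cells with it cannot be told apart in bulk RNA.

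**Figure D3:**
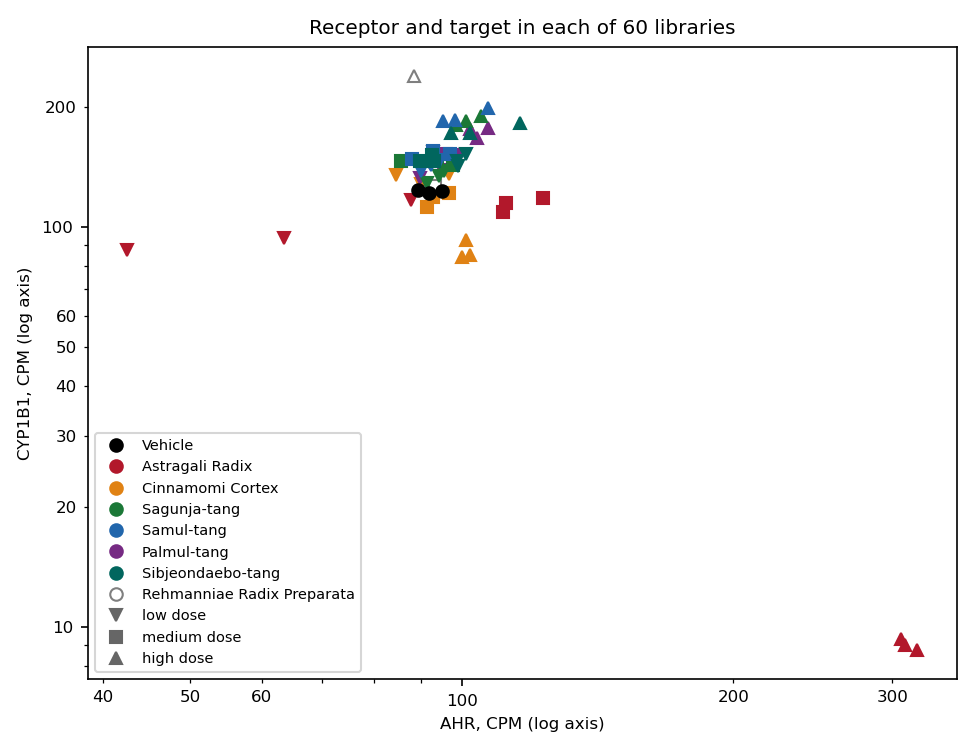
CYP1B1 against AHR in CPM (log axes) in each of the 60 libraries, coloured by extract and shaped by dose. Most libraries sit at about the vehicle's AHR level with CYP1B1 spread along the vertical axis; the 3 Astragali Radix high libraries lie alone at 307 to 320 CPM of AHR and 8.74 to 9.35 CPM of CYP1B1.

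CYP1A1, the P450 most used as a readout of AhR activity (chromosome 15, 74719542 to 74725610), stayed under 4 CPM in every library. Vehicle libraries held 0.908, 0.789 and 0.902 CPM. At the high dose CYP1A1 held 2.37, 1.64 and 1.99 CPM with Sagunja-tang, 1.71, 2.0 and 1.55 with Samul-tang, 1.41, 1.67 and 1.38 with Palmul-tang, and 1.49, 1.26 and 1.48 with Sibjeondaebo-tang, all above the vehicle. These values come from 35 to 77 expected counts per library. The changes were 1.21 ± 0.21 (adjusted p = 2.67e-05), 1.01 ± 0.22 (adjusted p = 0.000522), 0.78 ± 0.22 (adjusted p = 0.00832) and 0.70 ± 0.22 (adjusted p = 0.0188). The Palmul-tang call was lost without its high replicate 2 (adjusted p = 0.0515), and the Sibjeondaebo-tang call without vehicle replicate 2, without its own high replicate 1 or 3 and with no filter on low counts (adjusted p up to 0.0844). Samul-tang medium was called as well (0.76 ± 0.22, adjusted p = 0.0175), lost without vehicle replicate 2, without its own replicate 1 and with no filter (adjusted p up to 0.118). CYP1A1 rose with dose by 0.41 ± 0.10 per step in Sagunja-tang (adjusted p = 0.00814) and by 0.38 ± 0.10 in Samul-tang (adjusted p = 0.0476). The Samul-tang trend was lost on leaving out any one of its 6 low- and high-dose libraries, with DESeq2 and with no filter (adjusted p up to 0.296), and the Sagunja-tang trend without high replicate 1 or low replicate 1 or 2. With Cinnamomi Cortex the order was the reverse, with 0.492, 0.534 and 0.543 CPM at the high dose and 1.31, 1.28 and 1.02 at the low dose, groups that did not overlap. CYP1A1 fell with dose there (-0.60 ± 0.12, adjusted p = 0.00389), while the high dose itself was -0.72 ± 0.26 against the vehicle (adjusted p = 0.051), and -0.71 (adjusted p = 0.034) without the libraries that stood apart. Astragali Radix medium was called higher (0.68 ± 0.22, adjusted p = 0.0279), a call lost without any one vehicle library or its own replicate 1 or 2, with DESeq2 and with no filter (adjusted p up to 0.137); the high dose, at 1.0, 1.31 and 0.615 CPM, overlapped the vehicle.

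ALDH3A1, an aldehyde dehydrogenase that AhR is known to switch on (chromosome 17, 19737984 to 19748943), had the lowest level and the largest relative rise with the formulas. Vehicle libraries held 0.289, 0.0789 and 0.301 CPM. At the high dose it held 1.04, 0.57 and 0.852 CPM with Sagunja-tang, 1.14, 1.21 and 1.52 with Samul-tang, 0.866, 0.61 and 0.787 with Palmul-tang, and 1.19, 1.48 and 1.31 with Sibjeondaebo-tang, from 16 to 48 expected counts per library. All 12 lay above every vehicle library. The changes were 1.89 ± 0.36, 2.52 ± 0.34, 1.75 ± 0.37 and 2.57 ± 0.34, with adjusted p from 1.73e-07 to 0.000408. ALDH3A1 rose with dose in each formula, by 0.84, 1.20, 0.98 and 0.83 per step (adjusted p from 2.72e-06 to 0.000825). Samul-tang medium was called too (1.19 ± 0.39, adjusted p = 0.0362), which with CYP1A1 and CYP1B1 made 3 of 7 members higher there (5.19% of all genes); the ALDH3A1 call was lost without vehicle replicate 2 or Samul-tang medium replicate 1 or 2 and with no filter (adjusted p up to 0.255). With Cinnamomi Cortex it stayed between 0.0949 and 0.377 CPM at every dose, and its dose trend was -0.10 ± 0.20 (95% interval -0.48 to 0.29). Astragali Radix gave a peak at the medium dose: 0.396, 0.384 and 0.0767 CPM at the low dose, 0.549, 0.759 and 0.841 at the medium and 0.151, 0.131 and 0.0615 at the high dose. The medium dose was called higher than the vehicle (1.67 ± 0.37, adjusted p = 0.00094), and the high dose lower than the medium dose (-2.55 ± 0.45, adjusted p = 2.44e-06), from 1 to 3 expected counts per high-dose library. With AHR and CYP1A1, ALDH3A1 made 3 of 7 members called higher with Astragali Radix medium (7.75% of all genes). With Astragali Radix low, 4 members were called lower (19.2% of all genes). Their changes were smaller without the libraries that stood apart, which leaves 1 low-dose library.

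Dose trends use no vehicle library, and doses of an extract share a label code. Per trend, 3 of 7 members were called rising with Sagunja-tang (2.06% of all genes), 4 with Samul-tang (0.747%), 2 with Palmul-tang (1.92%) and 3 with Sibjeondaebo-tang (10.6%). Each formula count here includes ALDH3A1, with the limit of its passage through the filter. With Cinnamomi Cortex, 2 of 7 were called falling, CYP1A1 and CYP1B1 (0.198% of all genes). With Astragali Radix, AHR, ARNT and TIPARP were called rising (31.3%) and AHRR and CYP1B1 falling (38.7%). Without the libraries that stood apart more of the 42 trends were called, and the share of all genes called in that fit is not given. The ARNT trend with Astragali Radix (0.26 ± 0.03) was 0.07 on library totals, where it was not called.
From the low to the medium dose, 0 of 7 members were called with Cinnamomi Cortex or with any formula in the fit of all libraries. A step that was not called does not place a trend. ALDH3A1 with Palmul-tang had means of 0.19, 0.439 and 0.754 CPM at the low, medium and high dose, with neither step called. CYP1A1 with Samul-tang had means of 1.03, 1.46 and 1.75 CPM, again with neither step called. Single steps from the medium to the high dose were tested as well. Members called were CYP1B1 with Cinnamomi Cortex (1 of 7 lower, with 0.0453% of all genes), CYP1A1 and CYP1B1 with Sagunja-tang (2 of 7 higher, 0.764%), and CYP1B1 and ALDH3A1 with Samul-tang (2 of 7, 0.339%) and with Sibjeondaebo-tang (2 of 7, 2.45%). The Sagunja-tang CYP1A1 step (0.81, adjusted p = 0.0206) was lost without high or medium replicate 1 or 3 and with no filter, and the Samul-tang ALDH3A1 step (1.34, adjusted p = 0.0095) without medium replicate 2 or 3 or high replicate 3. With Astragali Radix, AHR and TIPARP were higher (2 of 7, 32.6% of all genes) and AHRR, CYP1B1 and ALDH3A1 lower (3 of 7, 33.9%) at the high than at the medium dose. On library totals TIPARP was -0.044 there. Astragali Radix medium against low had 5 of 7 called higher (18.9% of all genes), a step that uses the libraries that stood apart; CYP1B1 there turned to -0.034 without them.

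**Figure D4:**
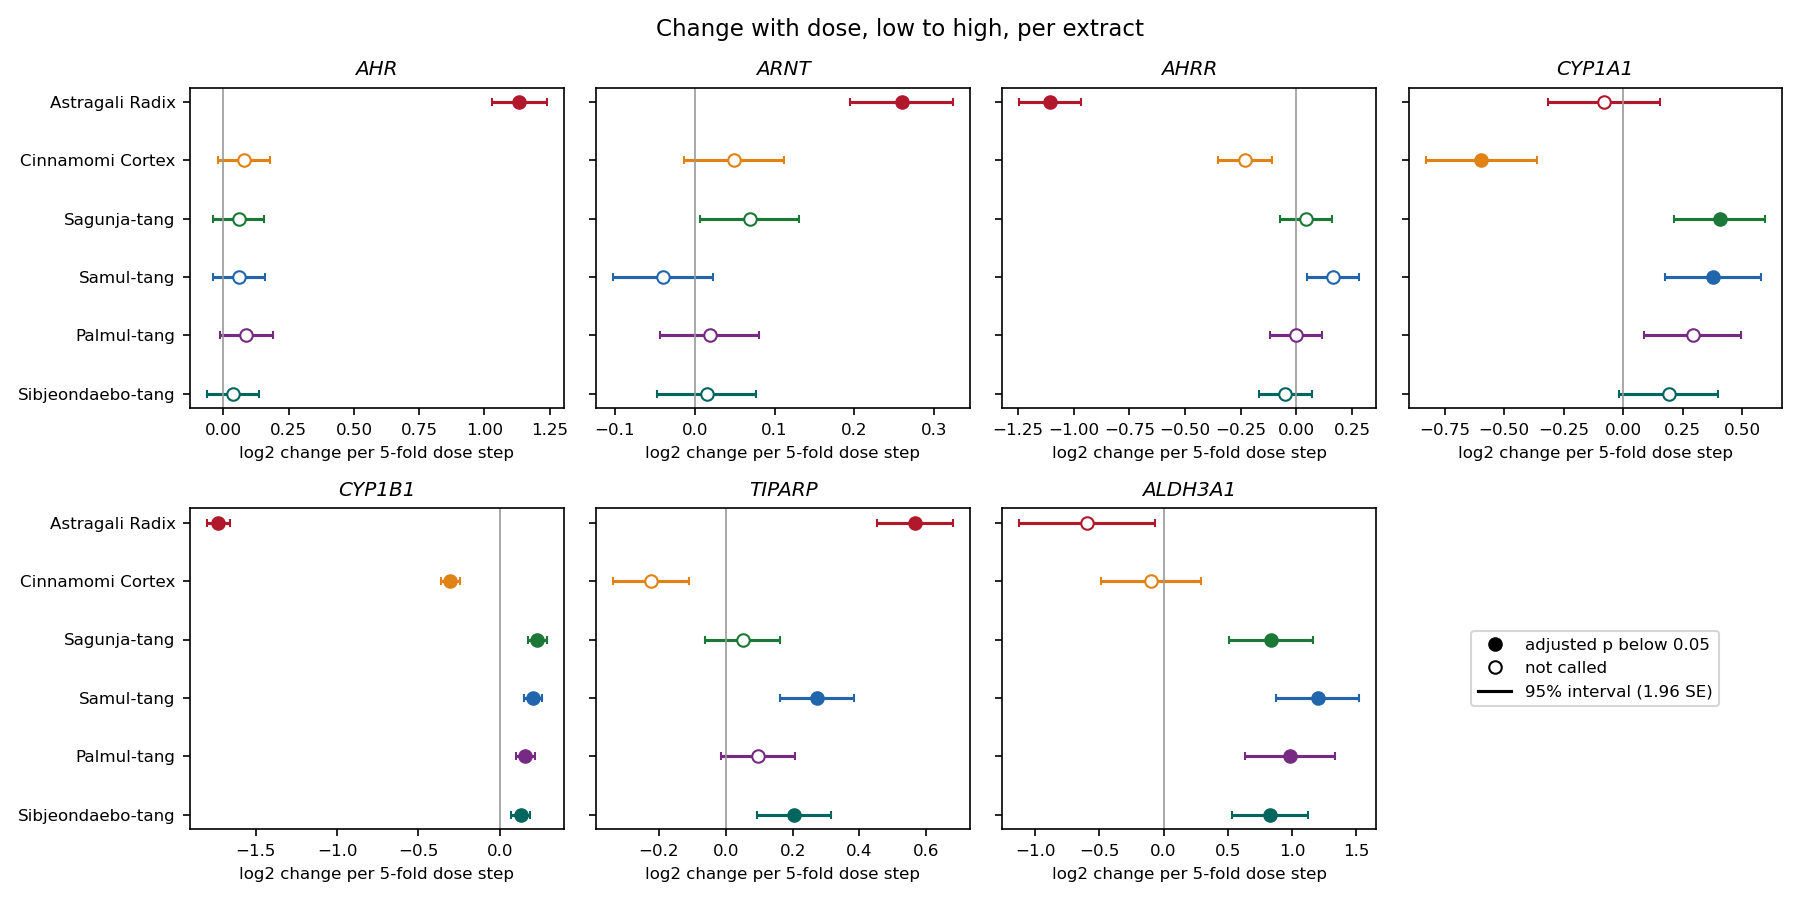
Log2 change per 5-fold dose step from the low to the high dose for each member and extract, with 95% intervals; filled points have an adjusted p below 0.05 (edgeR). CYP1B1 and ALDH3A1 are right of 0 in all 4 formulas, CYP1A1 and CYP1B1 left of 0 with Cinnamomi Cortex, and the axes differ between panels.

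At the matched dose of 500 µg/mL the formulas differed from Cinnamomi Cortex in the same 5 members. AHRR, CYP1A1, CYP1B1, TIPARP and ALDH3A1 were higher with each formula, 5 of 7 members, where the share of all genes called higher was 1.45% for Sagunja-tang, 1.06% for Samul-tang, 1.62% for Palmul-tang and 6.21% for Sibjeondaebo-tang. These comparisons share the Cinnamomi Cortex libraries and run between label codes. Their counts include ALDH3A1, which passed the filter through the groups in which it was higher. AHRR differed by 0.59, 0.89, 0.55 and 0.56 in that order, TIPARP by 0.68, 1.13, 0.82 and 1.00, and CYP1B1 by 1.08, 1.12, 0.99 and 1.01. CYP1A1 differed by 1.93, 1.73, 1.5 and 1.42, and ALDH3A1 by 1.64, 2.28, 1.5 and 2.33, with adjusted p over the 20 values from 1.08e-18 to 0.00404. AHR and ARNT differed by no more than 0.06 and -0.11, with 95% intervals inside -0.23 to 0.26.
Among the formulas the only call in the fit of all libraries was TIPARP, 0.46 ± 0.11 higher with Samul-tang than with Sagunja-tang (adjusted p = 0.0086; 1 of 7 members, with 2.23% of all genes higher). AHRR was 0.30 higher with Samul-tang than with Sagunja-tang (95% interval 0.07 to 0.53, adjusted p = 0.169), and 0.31 (adjusted p = 8.44e-07) without the libraries that stood apart. Sibjeondaebo-tang and Palmul-tang were both given at 500 µg/mL. Their difference is thus not that of adding root and bark to a fixed amount of Palmul-tang. Sibjeondaebo-tang differed from Palmul-tang by 0.02 for CYP1B1 (interval -0.10 to 0.13), -0.08 for CYP1A1 (-0.48 to 0.31) and 0.00 for AHRR (-0.23 to 0.24). It differed by 0.17 for TIPARP (-0.05 to 0.40) and 0.82 for ALDH3A1 (0.28 to 1.36, adjusted p = 0.068). Without the libraries that stood apart, the last 2 were called, TIPARP at 0.17 (adjusted p = 0.00152) and ALDH3A1 at 0.82 (adjusted p = 0.0115). The CYP1A1 and CYP1B1 differences between the formulas reached at most -0.51 (Sibjeondaebo-tang against Sagunja-tang, interval -0.89 to -0.13, adjusted p = 0.0775) and -0.13 (Palmul-tang against Samul-tang, interval -0.24 to -0.01, adjusted p = 0.404). Without the libraries that stood apart both were called, at -0.50 (adjusted p = 0.0383) and -0.13 (adjusted p = 0.027).
The difference of dose trends was tested for 4 pairs of extracts. Samul-tang minus Cinnamomi Cortex was called for 5 of 7 members (0.368% of all genes) and Astragali Radix minus Cinnamomi Cortex for 6 of 7 (60.2% of all genes). Within a label code, the trend of CYP1B1 differed by -0.03 between Samul-tang and Sagunja-tang (interval -0.11 to 0.05) and by -0.03 between Sibjeondaebo-tang and Palmul-tang (-0.11 to 0.05). The TIPARP trend was 0.22 higher with Samul-tang than with Sagunja-tang (interval 0.07 to 0.38, adjusted p = 0.238) and 0.11 higher with Sibjeondaebo-tang than with Palmul-tang (-0.05 to 0.26, adjusted p = 0.599). Without the libraries that stood apart both TIPARP differences were called (0.22, adjusted p = 4.98e-07, and 0.11, adjusted p = 0.00873), the first also with no filter (adjusted p = 0.0276) and with length and GC trends removed (adjusted p = 0.0129).

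The single Rehmanniae Radix Preparata library at 500 µg/mL held more of the AhR targets than nearly every other library, without a replicate to test it. It held 3.55 CPM of CYP1A1, 4.09 times the vehicle mean and above all 57 replicated libraries, from 110 expected counts. CYP1B1 was at 239 CPM (1.94 times) and TIPARP at 91.0 CPM (1.6 times), also above all 57. ALDH3A1, at 1.48 CPM (6.66 times), and AHRR, at 56.3 CPM (1.38 times), were each reached by 1 of the 57 libraries. AHR and ARNT, at 88.6 and 45.6 CPM, were not raised. Past 1.5-fold higher were 4 of 7 members, where 6.58% of all genes passed that fold in this library. The medium- and low-dose libraries held 1.01 and 1.08 CPM of CYP1A1, 127 and 154 of CYP1B1, 49.3 and 54.5 of TIPARP and 0.283 and 0.325 of ALDH3A1.

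Patterns over the 16 groups other than Astragali Radix, each a mean of 3 libraries, were compared by Pearson's r of log2 CPM as a description. These groups share the extracts' doses and the vehicle, so the points are not independent. CYP1A1 and CYP1B1 went together most closely (r = 0.953), and CYP1B1 was the gene most like CYP1A1 among 11207 genes of at least 5 CPM. TIPARP followed CYP1B1 (0.881), AHRR (0.877) and CYP1A1 (0.801). ALDH3A1 reached 0.761 with CYP1B1 and 0.415 with AHRR, and ARNT -0.04 with CYP1B1. With the 3 Astragali Radix groups added, AHR against CYP1B1 went from 0.349 to -0.825, CYP1A1 against CYP1B1 from 0.953 to 0.404, TIPARP against CYP1B1 from 0.881 to -0.17 and TIPARP against AHRR from 0.877 to -0.18. Other genes most like the members over the 16 groups were IRF2BPL (0.938), GDA (0.926) and CCDC71L (0.901) for CYP1B1, IRF2BPL (0.893) and CCDC71L (0.878) for CYP1A1, HAS3 (0.923), GDA (0.913) and FAM167A (0.906) for TIPARP, and SIM2 (0.89) and KLF9 (0.854) beside TIPARP for AHRR. ALDH3A1 was most like NAMPT (0.928), NPR2 (0.915) and TXNRD1 (0.912), the last a thioredoxin reductase, and AHR most like DOCK6 (0.945), IMPA2 (0.915) and PLCD1 (0.889). For ARNT, QSOX2 (0.772) and PCDHGC5 (0.741) are given.

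Other genes of the pathway were read by list. Their Astragali Radix dose trends use the low-dose libraries that stood apart, and list values without those libraries are not given. Of 15 further genes reported as AhR targets, 13 were tested. Shares of all genes called higher and lower were 11.2% and 11.6% with Sagunja-tang high, 9.37% and 10.3% with Samul-tang high, 10.0% and 10.2% with Palmul-tang high, 11.2% and 11.9% with Sibjeondaebo-tang high and 7.7% and 8.56% with Cinnamomi Cortex high; the list counts at the high dose stand against these. At the high dose of Sagunja-tang 5 were called higher and 3 lower (list median 0.28), and of Samul-tang 7 higher and 1 lower (0.39). Palmul-tang high had 5 higher and 1 lower (0.30) and Sibjeondaebo-tang high 6 higher and 1 lower (0.15), whereas Cinnamomi Cortex high had 1 higher and 6 lower (median -0.22). The Cinnamomi Cortex list median was also -0.20 at the medium and -0.15 at the low dose. With its dose, 1 gene rose and 2 fell (0.198% of all genes). Low-dose list medians were -0.09 with Sibjeondaebo-tang, -0.16 with Palmul-tang, 0.03 with Samul-tang and -0.20 with Sagunja-tang. The part of the vehicle libraries in these medians was not tested. Dose trends rose for 8 of these 13 with Samul-tang and 1 fell, beside 0.747% and 0.662% of all genes. With Sibjeondaebo-tang 7 rose (10.6%) and 1 fell. Palmul-tang had 5 rising (1.92%) and 1 falling, and Sagunja-tang 4 (2.06%) and 1. NQO1, a quinone reductase that answers to NRF2 as well as AhR, went from 127 CPM in the vehicle to 255 CPM with Sagunja-tang, 276 with Samul-tang, 277 with Palmul-tang and 415 with Sibjeondaebo-tang at the high dose and rose by 0.74 ± 0.03 per dose step of Sibjeondaebo-tang (adjusted p = 7.95e-23). It was also at 190.0 CPM with Cinnamomi Cortex high and 394 with Astragali Radix high, where CYP1B1 was low. SLC7A5, an amino acid transporter, rose with Astragali Radix dose (1.32 ± 0.03), as did STC2 (0.57 ± 0.04), while ALDH1A3, which makes retinoic acid, fell (-1.16 ± 0.03).
Of the 9 genes of the cytoplasmic complex and coactivators, 8 rose with Astragali Radix dose, in a trend where 31.3% of all genes rose and 38.7% fell. With Astragali Radix low, 5 of the 9 were called lower than the vehicle (19.2% of all genes) and 1 higher. With Astragali Radix high, 5 were called higher (32.6%) and 1 lower (35.6%). NCOA1, EP300 and CREBBP means were 34.8, 77.0 and 73.4 CPM at the low dose and 46.5, 124 and 89.9 at the high dose. Their vehicle means were 48.3, 135 and 115 CPM. HSP90AA1, the chaperone that holds AhR ready, went from 1173 CPM in the vehicle to 4330 with Astragali Radix high (trend 0.91 ± 0.03). HSP90AB1 (0.56), the cochaperone PTGES3 (0.68) and the coactivator NCOA3 (1.05) rose with it. At the high dose, 2 of these 9 were called lower with each formula except Sibjeondaebo-tang, which had 1. Of 11 tested relatives that share the bHLH-PAS fold, 5 rose and 3 fell with Astragali Radix dose, beside 31.3% and 38.7% of all genes. With Astragali Radix low, 6 of the 11 were called lower than the vehicle, beside 19.2% of all genes. With dose, the clock partners BMAL1 (1.19) and NPAS2 (0.86) and the hypoxia factor EPAS1 (0.54) rose and SIM1 fell (-0.80). Of 9 tested enzymes that make or use kynurenine, a tryptophan product that can bind AhR, 3 were called higher at the high dose of Sagunja-tang, Samul-tang and Cinnamomi Cortex alike, 2 with Palmul-tang and 4 with Sibjeondaebo-tang. KYNU, which cleaves kynurenine, rose with Astragali Radix dose (0.84 ± 0.08) and KYAT3 slightly (0.15 ± 0.04), while KYAT1 (-0.46 ± 0.05) and TDO2 (-0.59 ± 0.09) fell.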

How the data were processed

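The deposited table holds the authors' expected counts per gene. The submitters' processing notes name FastQC 0.11.9, Trim Galore 0.6.5, STAR 2.7.3a, RSEM 1.3.3 and hg38; annotation release and strand setting are not given in the sources used here. Of the table's columns, 60 belong to these samples; the other 219 were left out. Of the values, 90.8% were whole (tolerance 1e-09), and the rest were rounded. Genes were named and placed by identifier with GENCODE on GRCh38, and all 7 members matched 1 identifier each.

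One edgeR 4.0.16 fit in R 4.3.3 covered the 57 replicated libraries of 19 groups (TMM, filterByExpr, 1 mean per group, quasi-likelihood F test). Genes were called at a Benjamini-Hochberg adjusted p below 0.05 within each of 50 contrasts. The SE was taken as log2 change over root F, and 95% intervals are 1.96 SE. The common dispersion was 0.00656. The test was tried on simulated counts first, for Samul-tang high against the vehicle. It called 12 of 50 genes with a true 1.25-fold change, 38 of 50 at 1.5-fold and 49 of 50 at 2-fold. Of 16940 unchanged genes it called 7. Small changes that were not called may therefore be missed. The text names all 7 members, the 3 genes most like each over the 16 groups without Astragali Radix (mean of at least 5 CPM), and 4 genes per pathway list by smallest adjusted p in a dose trend, plus members of the receptor complex. Some genes that this rule names are not reported here. The members and lists were chosen with earlier results of these data known. Alternatives were DESeq2 1.42.0, its size factors in edgeR, no filter, a replicate block, leaving out each library or the 2 that stood apart, and the compared groups by themselves. Removing length and GC trends and scaling on library totals were added after the data were examined. RefSeq promoter entries matched 5 members; CYP1B1 and ALDH3A1 are named only.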

Additional observations from a re-analysis of the deposited data

Results flagged for a closer look

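The change with dose differed between extracts, by a test of the difference itself, in 11 cases. In units of log2 change per 5-fold dose step, Astragali Radix minus Cinnamomi Cortex was 1.05 for AHR (adjusted p = 6.47e-17), -0.88 for AHRR (adjusted p = 4.62e-11), 0.21 for ARNT (adjusted p = 0.000103), 0.52 for CYP1A1 (adjusted p = 0.00783), -1.43 for CYP1B1 (adjusted p = 6.03e-29) and 0.79 for TIPARP (adjusted p = 2.09e-11). These use the Astragali Radix low libraries that stood apart. Without them, with low-dose replicate 3 alone, the ARNT difference was 0.05. The doses of these 2 extracts are not the same in µg/mL, and 60.2% of all genes were called in this difference. The CYP1A1 call was lost without Astragali Radix high replicate 2 and on library totals without TMM (adjusted p up to 0.0974). On library totals the ARNT call was lost as well (adjusted p = 0.674).

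Samul-tang minus Cinnamomi Cortex was 0.39 for AHRR (adjusted p = 0.0149), 0.97 for CYP1A1 (adjusted p = 0.000157), 0.51 for CYP1B1 (adjusted p = 1.06e-11), 0.50 for TIPARP (adjusted p = 0.00018) and 1.29 for ALDH3A1 (adjusted p = 0.00674), at the same doses, with 0.368% of all genes called. The AHRR call was lost without Cinnamomi Cortex high replicate 1, Cinnamomi Cortex low replicate 2 or Samul-tang low replicate 1 (adjusted p up to 0.067), and the ALDH3A1 call without Cinnamomi Cortex low replicate 1 (adjusted p = 0.0631). Both differences use the same Cinnamomi Cortex libraries.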

How the results depend on the processing

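Without Astragali Radix low replicates 1 and 2, calls went from 38 to 62 against the vehicle, from 17 to 28 between dose steps and from 21 to 35 between extracts. With the compared groups by themselves there were 57 calls against the vehicle and 31 between extracts, with length and GC trends removed 47 and 31, and with no filter 34 and 26. All counts in this section are of the members alone, without the share of all genes in the same fit. Leaving out 1 library at a time gave 30 to 39 calls against the vehicle, 18 to 20 trends, 16 to 18 dose steps, 21 to 21 between extracts and 10 to 11 trend differences. On library totals without TMM, ARNT with Astragali Radix high turned to -0.19 against the vehicle and -0.35 against the medium dose, and TIPARP to -0.044 against the medium dose; the median of all genes moved by -0.33 and -0.39 there and by at most 0.12 with the formulas. CYP1B1 in Astragali Radix medium against low turned to -0.034 without the libraries that stood apart and to -0.002 with length and GC trends removed; AHRR in Astragali Radix low against the vehicle ran from -0.38 without replicate 2 to 0.26 without replicate 1. The cause was not tested. Replicate numbers did not pair the libraries (same-numbered libraries had a median r of 0.00913, differently numbered ones -0.00503, and 1 of 513 pairs exceeded 0.1); a fit with the replicate block called 38 members against the vehicle, 19 trends, 18 dose steps, 23 between extracts and 11 trend differences. DESeq2 left 26 member values without an adjusted p. Depth limits CYP1A1, with 20 to 22 counts per vehicle library, and most of all ALDH3A1, with 2 to 7.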
